A study of Nematostella vectensis with 15 samples.

Results

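The gene set of the starlet sea anemone *Nematostella vectensis* described here consists of gene models predicted by the Joint Genome Institute (JGI) that have a single exon, and therefore no intron. A model was included if the deposited annotation gave JGI as its source, listed exactly 1 exon, and placed it where no other gene model overlapped it on either strand. Of the 27527 gene models in the annotation, 5908 (21.5%) met this rule and are called members below. A further 672 single-exon JGI models overlapped another model and were set aside. The 12317 JGI models with several exons and no overlap served as the comparison class. The remaining models overlapped one another or had been assembled from transcripts with the program TACO.

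Genes without introns are transcribed and exported without splicing. In animals they include the replication-dependent histone genes, whose mRNAs end in a stem-loop in place of a poly(A) tail, many receptors coupled to G proteins, and retroposed copies of spliced genes, of which some are expressed and others are pseudogenes. A predicted single-exon model may also be a fragment of a longer gene or an open reading frame that is not transcribed, so whether and how strongly each model is counted is the first question to put to it. None of the 27527 model identifiers could be matched to the table of gene names used here, and it is therefore not stated which members belong to these families.

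RNA was measured in 15 libraries from adult female polyps, F1 offspring of the cross CH2XCH6, that had been acclimated to culture at 15, 20, or 25 °C in artificial sea water of 16‰ salinity, with 5 libraries per temperature. All libraries came from the mesenteric body portion. Mesenteries are internal folds of the body wall that carry gonad, gland cells, and muscle. The tissue label could not be checked against marker genes, for want of gene names. Polyadenylated RNA was selected, so mRNAs without a poly(A) tail would be poorly captured. The study's methods state that DNA was extracted from 1 female polyp and that DNA and RNA came from the same biological samples, but not whether each of the 15 libraries holds 1 polyp or whether these came from separate cultures. P-values then measure only the spread between these libraries. In RNA of bulk tissue, fewer cells of a type and less RNA per cell cannot be told apart. The libraries held 3526175 to 22160961 counted fragments; the medians were 7727786 (15 °C), 14234219 (20 °C), and 11095025 (25 °C). From 3 counts, and for counting error only, a 0 allows levels up to 0.851 CPM (counts per 1000000 counts of a library) in the shallowest library and 0.135 CPM in the deepest.

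Members were short. Their exon length ranged from 150 to 7750 bases with a median of 474, against 960 in the multi-exon class, and 25.6% of members but 4.83% of multi-exon models were under 300 bases. For 91.4% of members the length was a multiple of 3, and only 10.2% had an annotated UTR, against 27.6% of multi-exon models, so that most members are bare coding sequences in the annotation. Members occurred on 2180 of the 4660 scaffolds that carry a gene model, with 48.8% on the plus strand. For 1032 members (17.5%) the scaffold held no other model, against 8.81% of multi-exon models. The median distance from a member to its nearest model was 2106 bases, where the scaffold held one, and 1498 members lay under 1000 bases from it.

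The first comparison asked how many members were counted at all. Members were detected less often than multi-exon models in 15 of 15 libraries. On average 53.5% ± 3.11 of members had at least 1 count in a library (SD, n = 15), against 87.3% ± 1.71 of multi-exon models. With at least 10 counts required, these shares were 31.7% ± 4.08 and 72.3% ± 3.83. Over all 15 libraries 1690 members (28.6%) were never counted, and 2238 (37.9%) were counted in every library. In the multi-exon class 5.17% were never counted and 77.7% were counted in every library. The other 1980 members were counted in 1 to 14 libraries, 897 of them in 1 to 5, and 1007 members had between 1 and 9 counts in all libraries together.

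Libraries of unequal depth detect unequal numbers of models. The lowest share, 44.7%, was that of the shallowest library, at 15 °C, and the highest, 57.2%, in a 20 °C library. When every library was thinned at random to the lowest total, 45.6% ± 1.37 of members and 82.5% ± 0.755 of multi-exon models had a count. At this common depth the member shares ranged from 44.2% to 47.5% at 15 °C, from 44.3% to 47.6% at 20 °C, and from 43.7% to 45.5% at 25 °C, so the 3 temperatures overlapped.

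Detection also rose with exon length. Of members under 300 bases, 44.3% ± 3.34 were detected per library (n = 1514 members), and of those of 300 to under 600 bases 46.5% ± 3.82 (n = 2037). The shares were 54.6% ± 2.80 at 600 to under 1000 bases (n = 1385) and 78.5% ± 2.24 at 1000 to under 2000 bases (n = 840). The 132 members of 2000 bases or more were detected in 96.9% ± 1.21 of cases, and multi-exon models of this length in 96.3% ± 0.700, a difference smaller than the spread between libraries. In each of the 4 shorter classes the mean was lower for members than for multi-exon models, of which 68.0% ± 3.90 were detected under 300 bases and 91.3% ± 1.28 at 1000 to under 2000 bases.

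**Figure D1:**
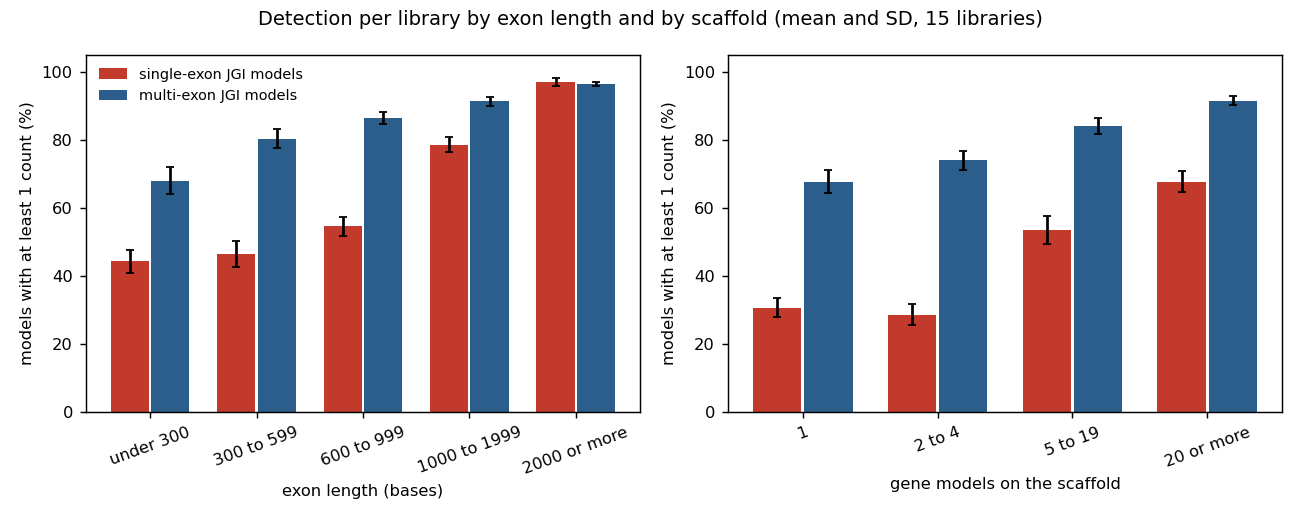
Share of models with at least 1 count in a library (percent, vertical axes), by exon length in bases (left) and by the number of gene models on the scaffold (right). Bars are means over the 15 libraries and error bars SD, with single-exon members in red and multi-exon JGI models in blue. The classes differ by exon length under 2000 bases and meet at 2000 bases or more (96.9% and 96.3%), and members on scaffolds of fewer than 5 models stay near 30%.

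The scaffold made a further difference. Where a member was the only model on its scaffold, 30.7% ± 2.85 were detected per library, against 67.6% ± 3.38 of multi-exon models in that position. On scaffolds of 20 models or more, 67.6% ± 3.09 of the 3306 members there were detected, against 91.5% ± 1.34 of multi-exon models. The lowest share was found for 452 members on scaffolds whose models, 2 or more, were all single-exon JGI models: 13.9% ± 1.78 were detected, and 325 of the 452 (71.9%) were never counted in any library. Members that shared a scaffold with another kind of model were detected in 62.9% ± 3.35 of cases. Within the scaffolds of 20 models or more, members remained below multi-exon models in mean detection in every length class under 2000 bases, with 54.9% ± 3.38 against 75.1% ± 2.70 under 300 bases and 87.9% ± 2.26 against 94.4% ± 1.12 at 1000 to under 2000 bases. Members with an annotated UTR were detected far more often (87.6% ± 0.907, n = 601) than members without one (49.7% ± 3.38, n = 5307). In the multi-exon class the corresponding shares were 97.2% ± 0.454 and 83.5% ± 2.20. The source of the UTR annotation is not given in the sources used here.

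Detected members were also less abundant. Levels were compared per length, as RPKM (CPM per 1000 bases of exon). The median RPKM of detected members was 2.76 ± 0.305 (SD over 15 libraries), and that of detected multi-exon models was 8.12 ± 0.474. The multi-exon median was the higher in 15 of 15 libraries, by 2.28 to 3.44 times. Averaged over libraries it was the higher in every class of length and scaffold, but the gap varied. The medians of members and multi-exon models were 5.15 and 8.25 under 300 bases and 2.12 and 8.41 at 600 to under 1000 bases. For models alone on their scaffold they were 1.72 and 2.26, and on scaffolds of 20 models or more 3.22 and 9.61. Among models with at least 10 counts the medians were closer, at 7.43 and 11.1. A floor of 10 counts is a higher RPKM in a shorter model, and members were shorter. The part of this cut in the closer medians was not tested. By their mean over the libraries, 63.3% of members but 26.1% of multi-exon models lay below an RPKM of 1, and 110 members (1.86%) reached an RPKM of 100, against 4.83% of multi-exon models. Of the 100 models with the highest mean RPKM in the whole annotation 1 was a member, and of the first 1000, 118 were.

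Members took 3.67% ± 0.212 of all counts in a library, although they made up 21.5% of the models. Of the summed member counts 50% fell on 54 of the 5908 members, and of those of the multi-exon class 50% fell on 110 of 12317 models. At 15 °C the member share of counts was 3.54, 3.33, 3.39, 3.47, and 3.47% in the 5 libraries. At 20 °C it was 4.05, 3.92, 3.52, 3.83, and 3.61%, and at 25 °C 3.84, 3.65, 3.72, 3.83, and 3.83%. All 25 °C libraries thus lay above all 15 °C libraries, and 4 of the 5 libraries at 20 °C did. The same separation of 25 from 15 °C was present in each of the 2 columns deposited per library, with 3.58 to 3.79% against 3.19 to 3.43% in the first and 3.82 to 3.98% against 3.53 to 3.73% in the second. The share was higher in the second column (mean 3.82%) than in the first (mean 3.57%) in 15 of 15 libraries. Both columns come from the same libraries, so they are not separate checks. Library totals were also lower at 15 °C, and their part in this difference was not tested.

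**Figure D2:**
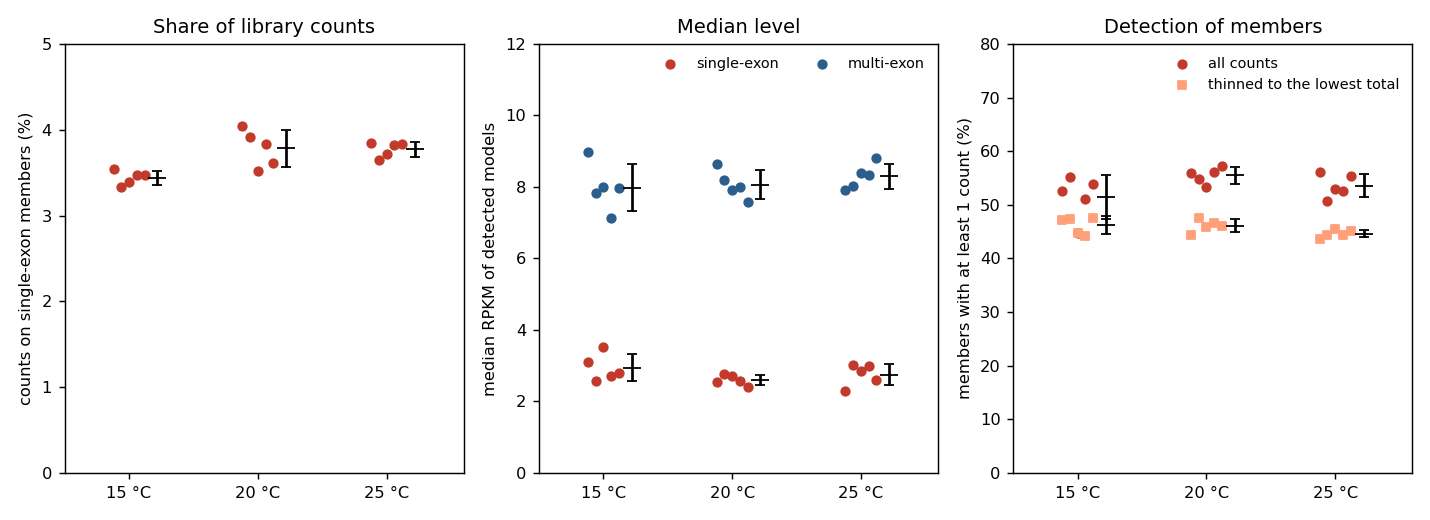
Left, percent of the counts of each library that fell on single-exon members; middle, median RPKM of the detected models in each class; right, percent of members with at least 1 count, before and after thinning to the lowest total. Each point is 1 library, 5 per temperature, and bars beside them give the mean and SD. The member share of counts was 3.33 to 3.54% at 15 °C and 3.65 to 3.84% at 25 °C, and the median RPKM of members lay below that of multi-exon models in each library.

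A single member accounted for 10.3% ± 1.36 of the member counts in a library. This model of 198 bases lies on scaffold 74, from base 202503 to 202700 on the minus strand, and had the second highest mean RPKM of the annotation (19078, rank 2). Its RPKM was 17012, 22136, 16584, 20293, and 18476 at 15 °C. At 20 °C it was 18557, 24011, 19196, 18023, and 20828, and at 25 °C 20752, 18187, 19730, 15637, and 16740. The 3 temperatures overlapped, and its change from 15 to 25 °C did not pass the test (log2 fold change −0.14 ± 0.14 SE, adjusted p = 0.476, edgeR quasi-likelihood test, Benjamini-Hochberg adjustment over all models tested). Without this member, the member share of counts was still separate between 15 °C (2.91 to 3.21%) and 25 °C (3.30 to 3.53%).

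The next 4 members by mean RPKM lay between 1023 and 1229, and all were under 300 bases. A model of 282 bases on scaffold 303 (1910 to 2191) and a model of 210 bases on scaffold 60 (760904 to 761113) did not pass the test at 25 against 15 °C, with log2 fold changes of −0.04 ± 0.14 and 0.08 ± 0.10. A model of 198 bases on scaffold 123 (264573 to 264770) was counted at an RPKM of 545, 595, 520, 684, and 567 at 15 °C. At 20 °C it stood at 1007, 1568, 1190, 1223, and 1264, and at 25 °C at 1899, 1304, 1538, 875, and 1032. Every library at 20 and 25 °C exceeded every library at 15 °C, and the member rose by 1.11 ± 0.19 on the log2 scale at 25 against 15 °C (adjusted p = 0.000303, edgeR). A model of 183 bases on scaffold 116 (592474 to 592656) moved the other way. Its RPKM was 1616, 1101, 1300, 1896, and 1508 at 15 °C and 592, 392, 435, 1269, and 1113 at 25 °C. It fell by 1.07 on the log2 scale (SE 0.29, adjusted p = 0.0111, edgeR), although the highest 2 libraries at 25 °C reached into the range at 15 °C.

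The spread between libraries of a temperature was taken as the SD of log2 CPM over its 5 libraries, for the 1947 members (33.0%) and 9058 multi-exon models (73.5%) that passed the filter on low counts. The median SD was 0.31 for members and 0.24 for multi-exon models, which corresponds to a factor of 1.24 and 1.18. The median over all 17818 models that passed the filter was 0.24. Spread depends on abundance, so models of like average CPM were set side by side. At an average log2 CPM of 0 to 2 the medians were both 0.39, whereas from 2 to 4 they were 0.27 and 0.24, from 4 to 6 0.22 and 0.18, and at 6 or more 0.25 and 0.20. The SD was also taken for each temperature alone, without pooling. In members and in multi-exon models it was then widest at 15 °C. This held over all tested models and in each abundance class from a log2 CPM of 2 upwards. Classes below 2 were not split by temperature. Over all tested members the median SD was 0.33 at 15 °C, against 0.26 at 20 °C and 0.25 at 25 °C. The 15 °C group also holds the library with the lowest total.

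Among members that averaged a log2 CPM of 2 or more, the widest spread was that of a 168-base model on scaffold 19 (193588 to 193755), with an SD of 1.41. Its RPKM was 40.2, 8.53, 84.4, 35.3, and 9.24 at 15 °C and 11.3, 1.33, 22.1, 2.93, and 9.35 at 20 °C. At 25 °C 3 libraries lay between 7.999 and 9.94 and the other two at 72.4 and 54.1. High and low libraries thus occurred at every temperature. A model of 955 bases that is alone on scaffold 9157 (1129 to 2083) followed with an SD of 1.29, and a model of 174 bases alone on scaffold 15164 (899 to 1072) with 1.17. The latter was abundant in places, at an RPKM of 2495 in 1 library at 15 °C and 571 to 813 in the other 4. At the other end, a model of 384 bases on scaffold 91 (17684 to 18067) had an SD of 0.07 and an RPKM between 72.1 and 92.0 in all 15 libraries.

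The main comparison asked which members changed with the temperature of culture. At 25 against 15 °C, 597 of the 1947 members tested (30.7%) passed an adjusted p of 0.05 in edgeR. Over all 17818 models the share called was 31.7%, and among multi-exon models it was 31.3%. Of the called members 326 rose (16.7%, against 15% of all models) and 271 fell (13.9%, against 16.7%). For 357 members the 5 libraries of either temperature did not overlap (18.3%, against 18.5% of all models).

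Large changes made up a greater share of the members. Of the members tested, 212 (10.9%) were called with a change of at least 2-fold in either direction, against 7.01% of all models and 6.24% of multi-exon models. These were 101 rises (5.19%, against 2.76% of all models) and 111 falls (5.70%, against 4.25%). The median absolute log2 fold change of the called members was 0.82, against 0.62 in called multi-exon models and 0.64 in all called models. At an average log2 CPM of 0 to 2 the shares called with at least this size were 10.4% for members and 10.5% for multi-exon models. They were 10.1% against 4.71% from 2 to 4, 11.3% against 4.22% from 4 to 6, and 16.9% against 8.58% at 6 or more, where 83 members were tested. The shares called at any size were 22.7% against 21.9% at 0 to 2, 33.9% against 30.5% from 2 to 4, 42.0% against 36.4% from 4 to 6, and 42.2% against 37.1% at 6 or more. These shares describe the classes and carry no test. The wider replicate spread of members in the same abundance classes stands beside them, and its part was not tested.

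**Figure D3:**
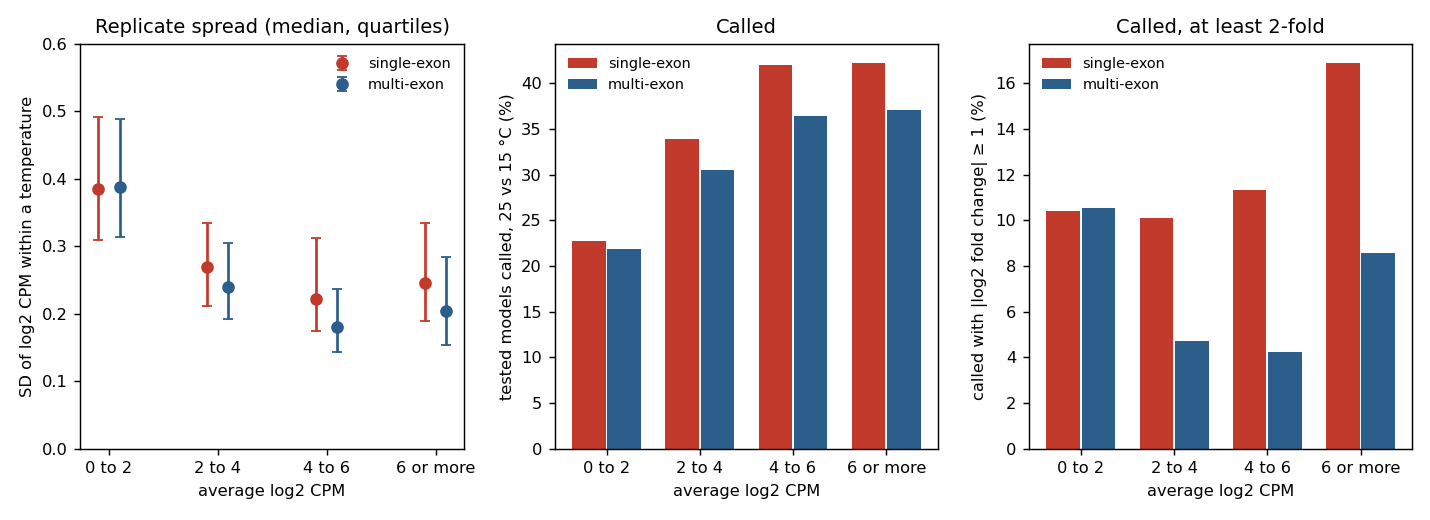
Left, SD of log2 CPM among the 5 libraries of a temperature, pooled over the 3 temperatures, as the median over models with the quartiles as bars. Middle and right, percent of tested models called at 25 against 15 °C, at any size and with a change of at least 2-fold. Models are grouped by average log2 CPM on the horizontal axis (single-exon members red, multi-exon JGI models blue). From a log2 CPM of 2 upwards members were above multi-exon models in each of the 3 measures, and at 0 to 2 the medians of spread were both 0.39.

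Place and length were looked at next. The share called at 25 against 15 °C was 27.5% for 142 tested members alone on their scaffold and 30.9% for 1494 on scaffolds of 20 models or more, against 23.8% and 32.3% of multi-exon models. By exon length it ranged from 28.7% at 600 to under 1000 bases to 35.1% at 2000 bases or more, and in multi-exon models from 25.2% under 300 bases to 37.7% at 2000 bases or more. Of 378 members tested under 300 bases 66 fell and 51 rose, and of 250 multi-exon models of that length 39 fell and 24 rose. At 2000 bases or more, of 114 members 24 rose and 16 fell, and of 1630 multi-exon models 250 rose and 365 fell. Over all lengths 15.0% of all models rose and 16.7% fell. Shares of all models by length were not taken, and these counts carry no test.

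At 20 against 15 °C, 345 members (17.7%) were called, against 18.8% of all models tested. Of these 221 rose (11.4%, against 9.66% of all models) and 124 fell (6.37%, against 9.11%). Changes of at least 2-fold were called in 142 members (7.29%), against 4.42% of all models. Of these 93 were rises (4.78%, against 2.36% of all models) and 49 were falls (2.52%, against 2.06%). The libraries of the 2 temperatures did not overlap for 236 of the called members (12.1%, against 11.7%). This comparison and that of 25 against 15 °C share the 5 libraries at 15 °C.

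At 25 against 20 °C, 72 members (3.70%) were called, against 3.68% of all models. Of these 30 rose (1.54%, against 1.14%) and 42 fell (2.16%, against 2.54%). Only 19 of these changes reached 2-fold (0.976%, against 0.993% of all models), and for 51 the libraries did not overlap (2.62%, against 2.87%). The number called rested on single libraries more than in the other comparisons. It was 45 without 20 °C replicate 4, 46 without 20 °C replicate 5, and 46 without 25 °C replicate 5. Over all models the share called fell as well, to 2.38, 2.35, and 2.23% in these fits, so this was not particular to members.

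The members with the largest rises and falls at 25 against 15 °C were taken from those that were called, averaged a log2 CPM of 0 or more, and had separate libraries at the 2 temperatures. In all 353 members met these conditions (18.1%, against 18.4% of all models), 226 that rose (11.6%, against 9.51%) and 127 that fell (6.52%, against 8.94%). The largest 2 rises were close, and their order changed under DESeq2 and when some single libraries were left out. The first was that of NEMVEDRAFT_v1g108202, a model of 357 bases on the minus strand of scaffold 89 (100365 to 100721). Its RPKM was 0.742, 1.54, 0.794, 1.46, and 2.90 at 15 °C, from 1 to 8 counts. At 20 °C it was 22.4, 21.0, 20.5, 22.2, and 15.1, and at 25 °C 38.6, 27.0, 37.1, 32.6, and 19.6. All 10 libraries at the higher temperatures lay above all libraries at 15 °C, while those at 20 and 25 °C overlapped. The log2 fold change was 4.22 ± 0.29 at 25 against 15 °C (18.6-fold, adjusted p = 6.35e-09) and 3.60 ± 0.30 at 20 against 15 °C (adjusted p = 8.70e-08), both by edgeR. At 25 against 20 °C it was 0.62 ± 0.18 and did not pass the test (adjusted p = 0.0665, edgeR). The model passed the filter on low counts through its libraries at 20 and at 25 °C, and not through those at 15 °C. With 1 to 8 counts at 15 °C, the folds against that temperature are imprecise.

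The other rise was that of NEMVEDRAFT_v1g238000, a model of 1467 bases with an annotated UTR on the minus strand of scaffold 3 (64598 to 66064). It stood at an RPKM of 0, 0.0751, 0.193, 0.354, and 0.176 at 15 °C. At 20 °C the values were 0.267, 0.153, 1.16, 0.239, and 0.453, and at 25 °C 2.40, 2.72, 3.45, 4.05, and 3.90. It was thus low at both 15 and 20 °C, and every library at 25 °C exceeded all the others. The log2 fold change by edgeR was 4.19 ± 0.51 at 25 against 15 °C (18.3-fold) and 2.89 ± 0.37 at 25 against 20 °C. At 20 against 15 °C it was 1.30 ± 0.66 and was not called. The model passed the filter on low counts through its 25 °C libraries, so its p-values are not given. Counts at 15 °C were 0 to 5, so the fold against 15 °C is imprecise.

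The largest fall was that of NEMVEDRAFT_v1g144189, a model of 168 bases on the minus strand of scaffold 956 (29171 to 29338). It had 79, 104, 12, 10, and 25 counts at 15 °C, or an RPKM of 62.3, 68.2, 20.3, 6.19, and 19.3. No fragment was counted in any of the 10 libraries at 20 and 25 °C. Against the pooled 15 °C counts, and with 3 counts over the group as the floor, its level was at least 138-fold lower at 20 °C. At 25 °C it was at least 134-fold lower. These bounds cover counting error in the group at 0 and not the spread between the 15 °C libraries. The model passed the filter on low counts through its 15 °C libraries alone, so its p-values are not given. Among the 15 °C libraries it varied by over 10 times, and it was the only tested member at 0 in all libraries of a temperature. It did not pass the filter and was not tested in the fit to only the 10 libraries compared, with either column alone, after thinning, or with at least 10 counts required in every library.

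The other fall was that of NEMVEDRAFT_v1g211382, a model of 1761 bases on the minus strand of scaffold 137 (109643 to 111403). Its RPKM was 6.85, 6.38, 7.73, 4.37, and 6.54 at 15 °C. At 20 °C it was 1.40, 1.27, 1.20, 2.15, and 1.34, and at 25 °C 0.0512, 0.133, 0.235, 0.256, and 0.159. None of the 3 temperatures overlapped, and the member was lower at each warmer temperature. It fell by 5.41 on the log2 scale at 25 against 15 °C (SE 0.28, 42.6-fold lower, adjusted p = 1.78e-10, edgeR). The fall was 4.42-fold at 20 against 15 °C (adjusted p = 2.83e-07) and 9.62-fold at 25 against 20 °C (adjusted p = 9.39e-06), by the same test.

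**Figure D4:**
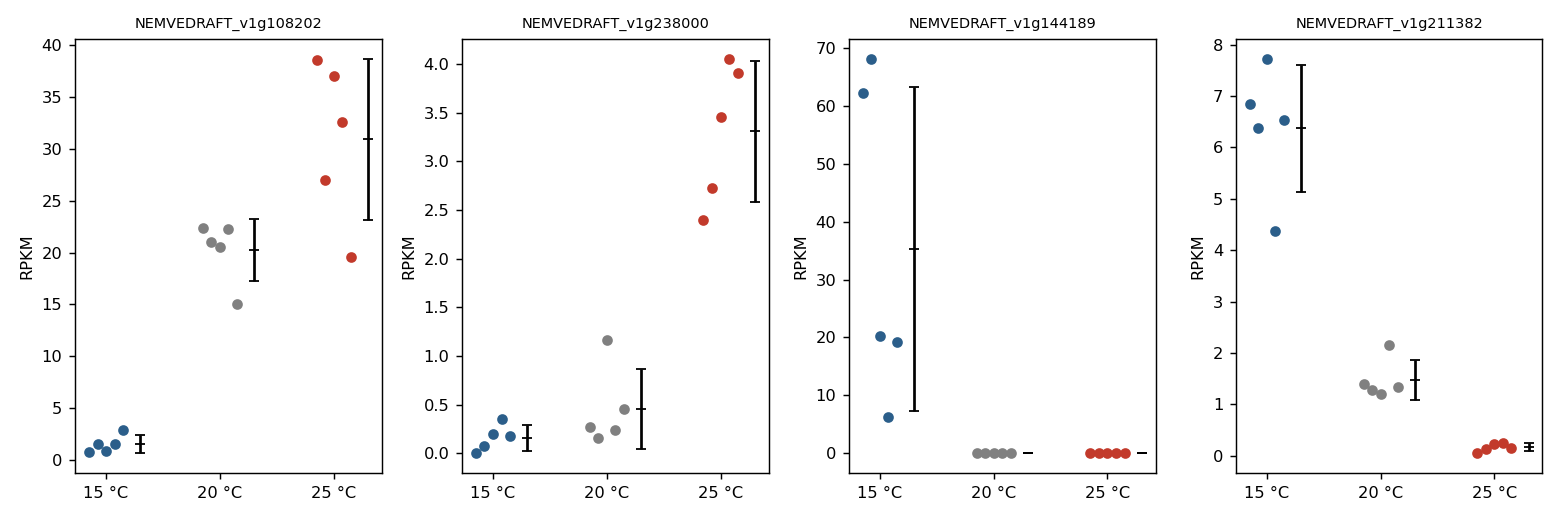
RPKM (linear vertical axes, each with its own range) of the members with the largest rises (left pair) and falls (right pair) in each of the 5 libraries per temperature. Bars beside the points give the mean and SD. In NEMVEDRAFT_v1g108202 the libraries at 20 °C (15.1 to 22.4) already stand apart from those at 15 °C (0.742 to 2.90), in NEMVEDRAFT_v1g238000 only those at 25 °C stand apart, NEMVEDRAFT_v1g144189 is at 0 in all 10 libraries above 15 °C, and NEMVEDRAFT_v1g211382 is lower at each warmer temperature.

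At 20 against 15 °C and again at 25 against 20 °C, 23 members were called (1.18%, against 1.20% of all models). Of these 9 rose at both steps (0.462%, against 0.264%), 6 fell at both (0.308%, against 0.415%), and 8 rose and then fell (0.411%, against 0.483%). Such members were described by their own values, as the comparisons share the 20 °C libraries. Those with the largest changes from 15 to 25 °C were taken, a choice that favours members moving in 1 direction over members that rose and then fell. A model of 1346 bases on scaffold 19 (1329578 to 1330923) had an RPKM of 2.85, 3.03, 1.69, 2.70, and 2.4996 at 15 °C. It reached 7.64, 5.74, 7.90, 5.64, and 5.66 at 20 °C and 16.8, 16.4, 13.0, 15.4, and 18.9 at 25 °C. The 3 temperatures were separate, with a rise of 2.53 ± 0.15 on the log2 scale from 15 to 25 °C (adjusted p = 1.49e-09, edgeR). A model of 2249 bases on scaffold 89 (441428 to 443676) went from 6.94 to 9.52 at 15 °C through 13.5 to 24.7 at 20 °C to 23.9 to 33.0 at 25 °C. Its rise was 1.73 ± 0.15 (adjusted p = 1.37e-07, edgeR), and the ranges at 20 and 25 °C overlapped slightly. A low model of 1032 bases on scaffold 71 (568744 to 569775) lay between 0 and 0.747 at 15 °C and between 2.32 and 4.41 at 25 °C, a rise of 3.21 ± 0.39 (adjusted p = 5.45e-06, edgeR). It passed the filter on low counts through its warmer libraries. Its counts at 15 °C were 0 to 7, so the size of this rise is imprecise. In the opposite direction, a model of 3199 bases on scaffold 96 (124073 to 127271) stood at 6.47 to 10.03 at 15 °C, 5.01 to 8.12 at 20 °C, and 2.53 to 3.20 at 25 °C. It fell by 1.66 on the log2 scale from 15 to 25 °C (SE 0.14, adjusted p = 5.94e-08, edgeR).

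Finally, members were set beside the nearest model on their scaffold. For 144 members tested that lay under 1000 bases from a tested nearest model on the same strand, the log2 fold changes of member and nearest model at 25 against 15 °C had a Pearson correlation of 0.79 and a Spearman correlation of 0.48 across pairs. With the nearest model on the opposite strand these were 0.03 and 0.02 (n = 305). Where the nearest model was upstream of the member on the same strand, the values were 0.85 and 0.60 (n = 96), and where it was downstream 0.62 and 0.25 (n = 48). From 1000 to under 5000 bases they were 0.42 and 0.39 on the same strand (n = 362), and from 5000 bases 0.27 and 0.34 (n = 166). For multi-exon models under 1000 bases from a nearest model on the same strand, they were 0.47 and 0.38 (n = 655). Signs were also compared where both the member and its nearest model were called. Under 1000 bases they were the same in 28 of 34 pairs on the same strand and in 21 of 36 on the opposite strand. From 1000 to under 5000 bases this held for 36 of 47 and 19 of 33 pairs, and from 5000 bases for 19 of 23 and 9 of 16. For multi-exon models the same-strand shares over these distances were 72.4, 75.1, and 77.5%. On the opposite strand they were 63.4, 52.6, and 59.5%. Sign agreement on the same strand was thus not confined to close neighbours or to members. The pairs share their libraries, 2 members that are nearest to each other enter as 2 pairs, the strand setting of the counting is not given beyond the counter's defaults, and whether neighbouring models belong to 1 transcript was not tested.

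**Figure D5:**
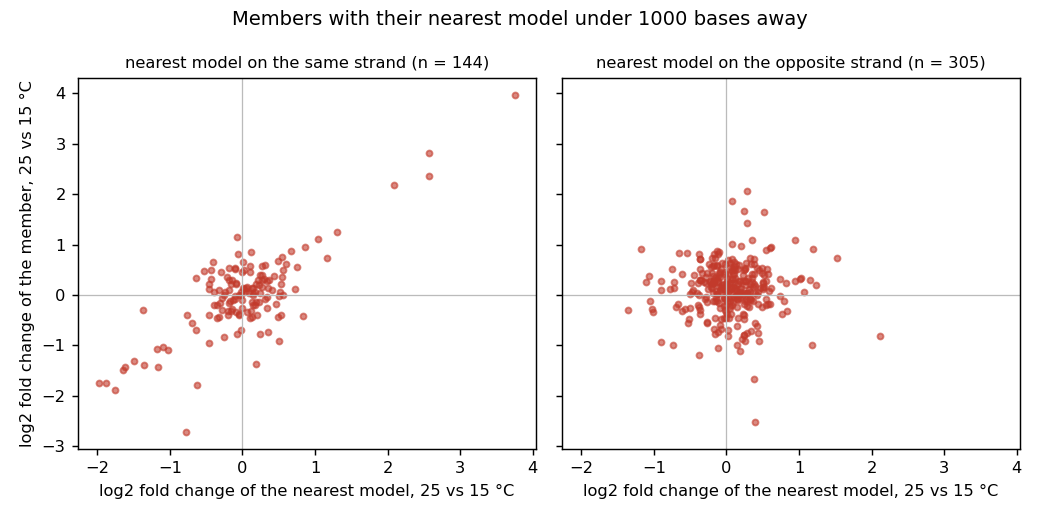
Log2 fold change at 25 against 15 °C of each member (vertical axis) and of its nearest model (horizontal axis), for tested pairs under 1000 bases apart. Each point is 1 pair, with the nearest model on the same strand on the left (n = 144) and on the opposite strand on the right (n = 305). On the same strand most pairs with large changes lie near a diagonal (Pearson 0.79), and on the opposite strand few do (Pearson 0.03).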

How the data were processed

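Per the paper's methods and the labels, the authors prepared stranded poly(A) libraries, trimmed the reads (Trimmomatic 0.38), mapped them (HISAT2 2.1.0), and counted fragments per gene with featureCounts at its defaults. StringTie 2.0 is also listed. The authors deposited raw counts per gene model in 2 columns per library, whose meaning is not given in the sources used here, with the summed exon length in bases as another column. The 2 columns were summed. Exon number, overlap, and distance came from the deposited annotation, on JGI scaffolds whose build name is not given in the sources used here.

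Counts were tested with edgeR 4.0.16 (R 4.3.3) over all 15 libraries: TMM normalization, its filter for low counts, and the robust quasi-likelihood test, with Benjamini-Hochberg adjustment over all 17818 models tested and a threshold of 0.05. SE is the log2 fold change divided by the square root of F. Log2 CPM used a prior count of 2. Alternatives were DESeq2 1.42.0, other normalizations and filters, either column alone, thinning (for calls chosen after seeing the data), a replicate block, and each library left out. The procedures were tested on simulated data. Identifiers were named by rule: the largest 2 rises and falls of non-overlapping called members. The members and lists were chosen with earlier results of these data known. Lists of gene families and cell type markers could not be applied without gene names.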

Additional observations from a re-analysis of the deposited data

Results flagged for a closer look

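In 28 groups of 5 libraries (10 measures of the members or of a named member), the highest or lowest library was compared with the others by Dixon's criterion for 5 values (0.71), and 3 stood apart where about 1.4 are given by chance. In 15 °C replicate 3, 20.2% of members had at least 10 counts, against 29.7 to 30.9% in the other 15 °C libraries. This library also had the lowest total, 3526175 fragments. NEMVEDRAFT_v1g108202 had an RPKM of 15.1 in 20 °C replicate 5, against 20.5 to 22.4 in the other libraries of that temperature. NEMVEDRAFT_v1g211382 had an RPKM of 2.15 in 20 °C replicate 4, against 1.20 to 1.40 in the others. Both members kept their call at 25 against 15 °C when any 1 of the 15 and 25 °C libraries was left out; the 20 °C libraries were not left out for this comparison.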

How the results depend on the processing

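The main fit called 597, 345, and 72 members at 25 against 15, 20 against 15, and 25 against 20 °C. Its shares of all models were 31.7, 18.8, and 3.68%. With the second deposited column alone 356, 224, and 43 of 1464 tested members were called, against 24.5, 14.4, and 2.73% of all models. After thinning, 356, 249, and 32 of 1414 tested members were called, against 25.3, 16.2, and 2.57% of all models. Leaving out 1 library gave 489 to 619, 276 to 360, and 45 to 72 members. Over all models the shares were then 26.1 to 34.3%, 15.2 to 20.6%, and 2.23 to 3.26%. With a replicate block, 626, 360, and 81 were called (33.1, 19.9, and 4.15% of all models). Same-numbered libraries of different temperatures deviated together in 5 of 15 pairs (correlation over 0.1, mean 0.104). Libraries with different numbers did so in 16 of 60 pairs (mean −0.0256). The labels do not say that equal numbers mark a pair, so the main fit used no pairing. Under DESeq2, 598, 358, and 107 were called (32.2, 20.0, and 5.48% of all models). The median log2 fold change of members at 25 against 20 °C, −0.02, was 0.01 with upper-quartile normalization. NEMVEDRAFT_v1g108202 and NEMVEDRAFT_v1g211382 kept direction and call wherever they were tested. Neither was tested with at least 10 counts required in every library. In the fit to only the 10 libraries compared, each passed the filter through the temperature where it was high. Keeping the call in that fit adds nothing for them. NEMVEDRAFT_v1g238000 and NEMVEDRAFT_v1g144189 kept their direction wherever they were tested. Each of these passed the filter through 1 temperature, so keeping the call adds nothing for them. NEMVEDRAFT_v1g238000 rose more than NEMVEDRAFT_v1g108202 under DESeq2 (log2 fold change 4.25 against 4.24). The share of members detected was 31.7% at 10 counts or more, 45.6% after thinning, and 56.7% at 300 bases or more. For multi-exon models it was 72.3%, 82.5%, and 84.4% with overlapping models included. The median RPKM of members was 7.43 at 10 counts or more and 2.41 at 300 bases or more, and their median CPM 1.65. For multi-exon models the first was 11.1 and the median CPM 8.68. The median SD of log2 CPM was 0.38 for members and 0.29 for multi-exon models after thinning, and edgeR's coefficient of variation 0.159 and 0.140. By average log2 CPM, the SD was 0.50 and 0.60 below 0, 0.39 in both classes at 0 to 2, 0.22 and 0.18 at 4 to 6, and 0.25 for members at 6 or more. The causes were not tested.

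Depth limits the low members: at the lowest total, a 0 allows levels up to 0.851 CPM. Reads shared between near-identical copies could not be checked without a genome. The strand setting of the counting is not given beyond the counter's defaults, which ignore strand.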
